A study of Homo sapiens with 24 samples.

Results

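The genes described here are 10 Kruppel-like factors, KLF2, KLF3, KLF4, KLF5, KLF6, KLF7, KLF9, KLF10, KLF11 and KLF13, followed through 24 RNA-seq libraries of 2 clear cell renal cell carcinoma (ccRCC) lines. They were taken by gene symbol, as 10 of the 26475 genes in the tables, and all 10 passed the filter on low counts in every comparison. The 10 were chosen with earlier results of these data known. Libraries carrying 1 of 2 short hairpins against PAX8 were compared with sgNTC18 libraries in each line. In each of these 4 comparisons 6 of the 10 were called higher by the test, beside 31.5% to 36.1% of all genes. KLF9 differed most, by 19.5-fold and 17.7-fold in OS-LM1 cells, and KLF7 was between 2.45-fold and 4.84-fold higher in both lines. KLF6 went the other way in 3 of these 4 comparisons, and KLF4 was lower with shPAX8-2 in 786-M1A cells and higher with both hairpins in OS-LM1 cells.

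Kruppel-like factors are transcription factors that bind GC boxes and CACCC boxes in promoters through zinc fingers at their C terminus. The family is usually sorted by the N-terminal part. KLF2, KLF4, KLF5, KLF6 and KLF7 carry domains that can activate transcription, KLF3 recruits the corepressor CtBP, and KLF9, KLF10, KLF11 and KLF13 can bind the corepressor SIN3A. Several are known as early-response genes to growth factors, shear stress, glucocorticoids or TGF-beta, and in the kidney KLF6 has been studied in epithelial injury.

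The study asked how PAX8, a transcription factor of the renal lineage, supports ccRCC. 786-M1A and OS-LM1 are metastatic cultured lines derived from the ccRCC lines 786-O and OS-RC2. Each line carried sgNTC18, shPAX8-1 or shPAX8-2, with 4 replicates of each, so that the 6 groups were 786-M1A sgNTC18, 786-M1A shPAX8-1, 786-M1A shPAX8-2, OS-LM1 sgNTC18, OS-LM1 shPAX8-1 and OS-LM1 shPAX8-2. All were grown in the same medium with serum and polyadenylated RNA was sequenced. The plasmids that the methods name for hairpins are induced by doxycycline, and the labels give neither the dose nor the time. By its name sgNTC18 is a guide construct and not a hairpin. Whether the sgNTC18 and shPAX8 libraries belong to one experiment is not stated in the sources used here. PAX8 depletion therefore cannot be told apart from a difference of construct type or of experiment in any comparison with sgNTC18, whereas shPAX8-1 and shPAX8-2 are both hairpins against the same gene. Nothing says that the replicates were separate cultures, and p-values measure the spread between these libraries only.

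The hairpins are shown because the constructs differed for several of the factors. Each is the strand complementary to PAX8 mRNA, 22 bases long, written 5′ to 3′ with bases 2 to 8 in capitals.
shPAX8-1: tGTGAGTCaatgcttagtcggc
shPAX8-2: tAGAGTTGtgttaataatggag
The exact complement of shPAX8-1 lay at chr2:113241690-113241711 (GRCh38, minus strand), in coding exon 7 of the 12 exons of the canonical PAX8 transcript, and was held by 10 of 14 annotated PAX8 transcripts. That of shPAX8-2 lay at chr2:113218122-113218143, in the 3′ UTR in exon 12, and was held by 7 of the 14.

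PAX8 itself was measured first, as CPM, the counts scaled to a common library size after TMM normalisation. Across the 786-M1A libraries it stood at 341 ± 44.7 CPM (mean ± SD, n = 4) with sgNTC18, 18.7 ± 4.32 with shPAX8-1 and 42.4 ± 2.37 with shPAX8-2. The corresponding OS-LM1 levels were 259.9 ± 14.5, 78.2 ± 13.1 and 79.2 ± 13.7 CPM. The hairpins thus left different levels of PAX8 in 786-M1A cells (log2 fold change of shPAX8-1 against shPAX8-2 -1.18 ± 0.15 SE, adjusted p = 4.01e-05), and a difference of -0.05 ± 0.12 in OS-LM1 cells (adjusted p = 0.797). Library totals ran from 11634419 to 52059375 expected counts. 18S ribosomal RNA took 4.52% to 8.16% of the sgNTC18 libraries, 1.18% to 3.58% of those with shPAX8-1 and 1.60% to 6.53% of those with shPAX8-2. The renal lineage markers PAX8, CDH6, PAX2 and LHX1 were above 1 TPM, the authors' length-corrected level, in both lines, and the summed endothelial markers PECAM1, CDH5 and VWF stayed at or below 0.22 TPM. The leukocyte markers PTPRC, CD68 and LYZ summed to 180.9 to 367.6 TPM in 786-M1A and 74.94 to 327 TPM in OS-LM1 libraries. CD68 made up nearly all of it, at 205.2, 230.2 and 324.8 TPM with sgNTC18, shPAX8-1 and shPAX8-2 in 786-M1A and 77.2, 292.5 and 211 TPM in OS-LM1 cells, while PTPRC had group means of 0.228 TPM or less. The fibroblast markers COL1A1, COL3A1 and PDGFRB summed to 55.7 to 270.7 TPM in 786-M1A, where PDGFRB was at 195.9, 90.2 and 232 TPM, and to 4.10 to 59.7 TPM in OS-LM1, where COL1A1 was at 4.77, 30.4 and 47.8 TPM. The epithelial markers KRT8, KRT18 and EPCAM summed to 141 to 568.6 TPM in 786-M1A and 464 to 1025 TPM in OS-LM1. In the 786-M1A groups KRT8 was at 250.2, 41.7 and 61.8 TPM and KRT18 at 278.5, 128 and 193 TPM. In the OS-LM1 groups KRT8 was at 231.5, 249 and 275 TPM and KRT18 at 262, 516 and 641 TPM. EPCAM had group means of 4.21 TPM or less. The part of the leukocyte, fibroblast and epithelial markers in the results was not tested. Of the hypoxia targets usual in ccRCC, CA9 was at a mean of 0 TPM and NDUFA4L2 at 0.268 TPM in 786-M1A sgNTC18 cells. VEGFA there was at 369 TPM, and at 424.5 and 665 TPM with shPAX8-1 and shPAX8-2. ANGPTL4 was at 13.5, 1.11 and 7.3 TPM with sgNTC18, shPAX8-1 and shPAX8-2 in that line. In the same order in OS-LM1, CA9 was at 7.31, 49.0 and 33.0 TPM and NDUFA4L2 at 0.85, 35.95 and 38.8 TPM. ANGPTL4 there was at 1.6, 22.3 and 39.4 TPM and VEGFA at 164, 95.4 and 132 TPM. The 4 libraries of 786-M1A shPAX8-1 fell into 2 pairs: replicates 1 and 2 differed from each other by a chi-square of 14.1 per gene and replicates 3 and 4 by 3.73, against 44.7 to 77.4 across the pairs. Over all comparisons 7 member calls were lost with replicates 1 and 2 alone and 2 with replicates 3 and 4 alone. For most calls that turned on this split, the value with the pair concerned is given. Fold changes also followed the GC content of the transcripts, with a Spearman correlation over genes between -0.56 and -0.10 in the 6 comparisons within a line. Genes are not independent replicates. Values with each library's GC trend removed are given as an alternative fit. That step also removes any difference between constructs or lines that follows GC content, so it cannot isolate the part of base composition.

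In sgNTC18 cells of both lines KLF10 and KLF6 held the largest shares of the summed TPM of the 10 genes. The TPM scale corrects for transcript length and allows genes to be set side by side. In 786-M1A sgNTC18 cells KLF10 stood at 80.5 ± 8.80 TPM and KLF6 at 67.6 ± 5.96, with overlapping ranges, and together they were followed by KLF11 at 15.1 ± 1.67 TPM. Down to KLF3 (11.8 ± 0.965 TPM), each of KLF11, KLF7 and KLF4 overlapped the next in order. KLF5 was last, at 1.82 ± 0.318 TPM. In OS-LM1 sgNTC18 cells KLF10 (106.9 ± 7.28 TPM) lay clear above KLF6 (59.0 ± 3.41 TPM), and KLF9 was last at 1.27 ± 0.295 TPM. KLF6 made up 30.6% ± 0.834 of the summed TPM of the 10 genes in 786-M1A sgNTC18 cells and 27.1% ± 1.12 in OS-LM1 sgNTC18 cells. Its share was 20.8% ± 3.46 and 11.95% ± 1.51 with shPAX8-1 and shPAX8-2 in 786-M1A, and 14.5% ± 1.02 and 14.9% ± 1.98 in OS-LM1. KLF7 came just after KLF11 in both sgNTC18 groups, and with shPAX8-2 it stood above KLF6 without overlap in either line (38.4 ± 6.96 against 26.5 ± 1.68 TPM in 786-M1A, 47.8 ± 1.26 against 34.6 ± 5.86 TPM in OS-LM1).

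**Figure D1:**
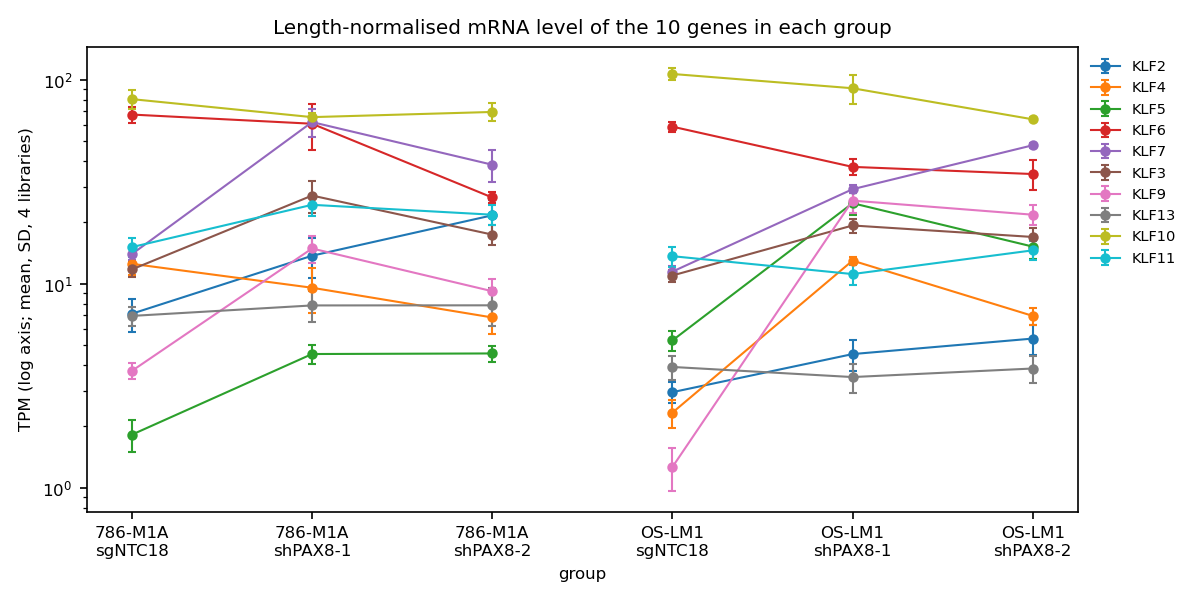
TPM (log axis) of each of the 10 genes in the 6 groups, with points at the mean of 4 libraries and bars of 1 SD. KLF10 is at the top of every group, and KLF9 climbs from the last place in OS-LM1 sgNTC18 cells (1.27 TPM) to 25.6 TPM with shPAX8-1 and 21.8 TPM with shPAX8-2.

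Across the 10 genes the calls (edgeR quasi-likelihood test, adjusted p under 0.05) were set against those of all genes tested, since most genes differed in these comparisons. With shPAX8-1 in 786-M1A cells 6 members were higher than with sgNTC18 and 0 were lower, where 36.1% of all genes were higher and 34.5% lower. With shPAX8-2 in that line 6 were higher and 2 lower (31.5% and 30.9% of all genes). In OS-LM1 cells shPAX8-1 gave 6 higher and 3 lower (35.6% and 35.8%), and shPAX8-2 gave 6 higher and 2 lower (34.3% and 34.1%). The median log2 fold change of the members in these 4 comparisons was 0.95, 0.70, 0.67 and 0.80, beside medians between -0.01 and 0.03 over all genes. The members were chosen with earlier results of these data known, so these counts and medians describe the chosen genes and not the family. Of 3 other KLF genes tested in each line, 2 were higher and 0 lower with either hairpin in 786-M1A cells. In OS-LM1 cells 1 was higher and 2 lower with shPAX8-1, and 1 and 1 with shPAX8-2. The comparisons of a line share their 4 sgNTC18 libraries.

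**Figure D2:**
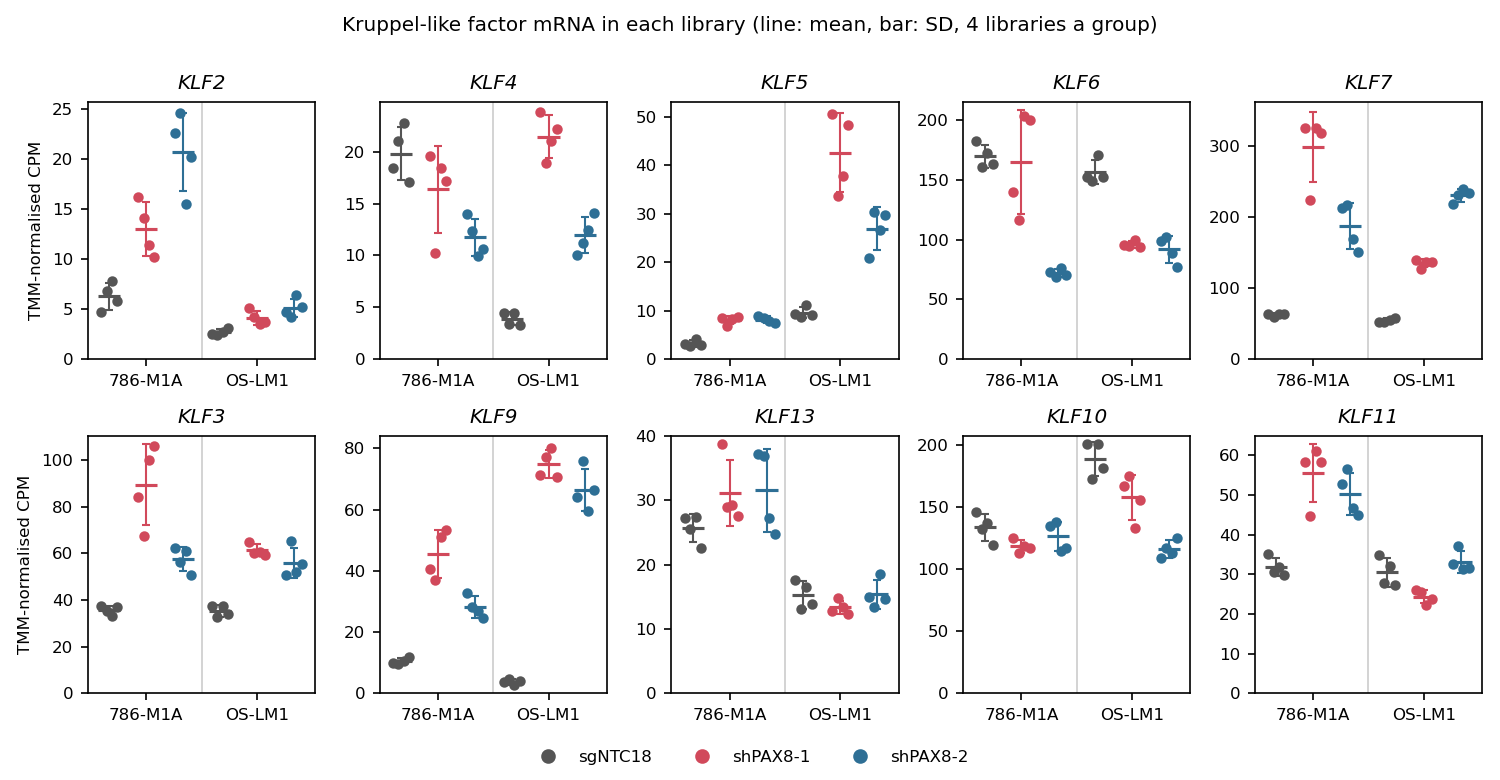
TMM-normalised CPM of each gene in every library, by line and construct, with a line at the mean of 4 libraries and a bar of 1 SD. KLF9 and KLF7 libraries with either hairpin all lie above the sgNTC18 libraries of their line, KLF13 shows little separation within a line, and KLF6 in 786-M1A shPAX8-1 splits into 2 low (117 and 139.6 CPM) and 2 high (199.6 and 204 CPM) libraries.

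KLF6, a widely expressed activator of the family studied as a tumour suppressor, lies at chr10:3775996-3785209 (GRCh38.p14, minus strand). In 786-M1A sgNTC18 cells its 4 libraries read 182, 161, 173 and 163 CPM. With shPAX8-1 they read 139.6, 117, 204 and 199.6 CPM in replicates 1 to 4, and with shPAX8-2 73.2, 69.1, 76.4 and 70.5 CPM. Every shPAX8-2 library was thus lower than every other 786-M1A library, and shPAX8-1 had 2 libraries below and 2 above the sgNTC18 range. The log2 fold change against sgNTC18 was -1.21 ± 0.15 for shPAX8-2 (adjusted p = 5.97e-06) and -0.02 ± 0.15 for shPAX8-1 (adjusted p = 0.909). The shPAX8-1 value was -0.41 (adjusted p = 0.00244) with replicates 1 and 2 alone and 0.26 (adjusted p = 0.015) with replicates 3 and 4 alone, opposite in sign, so no direction can be given for it. Between the hairpins KLF6 was 2.28-fold higher with shPAX8-1 (log2 fold change 1.19 ± 0.15, adjusted p = 4.09e-05), and this held with either pair of shPAX8-1 libraries (0.83 and 1.47).

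In OS-LM1 cells KLF6 read 152, 149, 171 and 152 CPM with sgNTC18. The shPAX8-1 libraries read 95.5, 94.97, 99.7 and 93.5 CPM, and the shPAX8-2 libraries 99.0, 102, 88.9 and 76.8 CPM. Neither hairpin group overlapped sgNTC18, and the hairpin groups overlapped each other. KLF6 was lower by a log2 fold change of -0.73 ± 0.09 with shPAX8-1 (adjusted p = 7.46e-07) and -0.76 ± 0.09 with shPAX8-2 (adjusted p = 4.88e-07), and the hairpins differed by 0.04 ± 0.09 (adjusted p = 0.811). By mean CPM the 6 groups stood in the order 786-M1A sgNTC18, 786-M1A shPAX8-1, OS-LM1 sgNTC18, OS-LM1 shPAX8-1, OS-LM1 shPAX8-2 and 786-M1A shPAX8-2. The first 3 overlapped their neighbours, as did the 2 OS-LM1 hairpin groups, and the other steps had no overlap. The 5 genes whose log2 CPM followed that of KLF6 most closely over the 24 libraries, of 9362 compared, were AP1S3 (Pearson r = 0.93), PMAIP1 (0.93), KARS (0.91), RHEB (0.90) and XPO1 (0.89). The libraries share lines, constructs and base composition, so these values are a description. PAX8 itself had r = 0.31 with KLF6.

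KLF7, an activator close in sequence to KLF6 and known from neuronal and adipose biology, lies at chr2:207074137-207173851. In 786-M1A cells it read 63.7, 59.5, 63.6 and 63.4 CPM with sgNTC18. With shPAX8-1 it read 325, 225, 325 and 319 CPM, and with shPAX8-2 213, 217, 169 and 151 CPM. Both hairpin groups lay above sgNTC18 throughout, and every shPAX8-1 library lay above every shPAX8-2 library. Its log2 fold change was 2.28 ± 0.14 with shPAX8-1 (adjusted p = 3.34e-09) and 1.60 ± 0.14 with shPAX8-2 (adjusted p = 1.84e-07), and between the hairpins 0.67 ± 0.14 (adjusted p = 0.00135), the last 0.45 (adjusted p = 0.0106) with the GC trend removed. In OS-LM1 cells KLF7 read 51.9, 51.9, 54.8 and 58.7 CPM with sgNTC18. There it read 139.9, 127, 138 and 137 CPM with shPAX8-1 and 218, 232, 239 and 235 CPM with shPAX8-2. The 3 groups did not overlap, and the order of the hairpins was the opposite of that in 786-M1A cells. On the log2 scale the fold change was 1.29 ± 0.08 (adjusted p = 1.77e-11) with shPAX8-1, 2.09 ± 0.08 (adjusted p = 2.69e-14) with shPAX8-2 and -0.80 ± 0.08 (adjusted p = 2.24e-07) between the hairpins.

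KLF2, an activator known for keeping endothelium and T cells quiescent, lies at chr19:16324826-16328685. Across the 786-M1A libraries it read 4.72, 6.86, 7.80 and 5.80 CPM with sgNTC18. The hairpin libraries read 16.3, 14.1, 11.4 and 10.3 CPM with shPAX8-1 and 22.6, 24.6, 15.5 and 20.3 CPM with shPAX8-2. Both groups lay above sgNTC18 and overlapped each other. Its log2 fold change was 1.07 ± 0.19 with shPAX8-1 (adjusted p = 0.000157) and 1.74 ± 0.20 with shPAX8-2 (adjusted p = 2.11e-06). The hairpins differed by -0.67 ± 0.19 (adjusted p = 0.00939), but by -0.21 (adjusted p = 0.113) once the GC trend was removed and by -0.45 (adjusted p = 0.0972) with replicates 1 and 2 of shPAX8-1 alone. KLF2 has the most GC-rich transcript of the 10, at 61.2%. In OS-LM1 cells it was scarce, at 2.74 ± 0.310 CPM with sgNTC18, 4.15 ± 0.699 with shPAX8-1 and 5.14 ± 0.927 with shPAX8-2. Every hairpin library was above the sgNTC18 range of 2.46 to 3.16 CPM, with log2 fold changes of 0.57 ± 0.17 (adjusted p = 0.00587) and 0.93 ± 0.17 (adjusted p = 6.93e-05). With the GC trend removed KLF2 with shPAX8-1 was higher by 1.63 in 786-M1A cells and by 1.01 in OS-LM1 cells.

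KLF4, a factor of epithelial differentiation and of reprogramming to pluripotency, lies at chr9:107484852-107489769. In 786-M1A cells it read 18.4, 21.0, 22.8 and 17.0 CPM with sgNTC18. With shPAX8-1 it read 19.6, 10.3, 18.4 and 17.2 CPM, overlapping sgNTC18, and with shPAX8-2 14.0, 12.4, 9.95 and 10.7 CPM, all below it. The fitted log2 fold change was -0.73 ± 0.19 with shPAX8-2 (adjusted p = 0.00312) and -0.26 ± 0.18 with shPAX8-1 (adjusted p = 0.219), the latter 0.14 with the GC trend removed (adjusted p = 0.492). Between the hairpins the value was 0.47 ± 0.19 (adjusted p = 0.0495). That call was lost without shPAX8-1 replicate 1, 3 or 4 or shPAX8-2 replicate 2, 3 or 4, with values of 0.36 to 0.49 and adjusted p of 0.0798 to 0.12, and with shPAX8-1 replicates 1 and 2 alone (0.34, adjusted p = 0.256), and with the GC trend removed it was 0.78 (adjusted p = 0.00256). In OS-LM1 cells KLF4 read 4.45, 3.37, 4.48 and 3.31 CPM with sgNTC18. It read 23.8, 18.9, 21.0 and 22.2 CPM with shPAX8-1 and 10.1, 11.2, 12.5 and 14.1 CPM with shPAX8-2. The 3 groups did not overlap. The log2 fold change was 2.43 ± 0.13 (adjusted p = 5.9e-12) with shPAX8-1, 1.63 ± 0.13 (adjusted p = 2.61e-09) with shPAX8-2 and 0.81 ± 0.13 (adjusted p = 8.69e-05) between the hairpins.

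KLF5, an activator of proliferating epithelium, lies at chr13:73054976-73077538. Across the 786-M1A libraries it was at 3.16, 2.71, 4.14 and 2.94 CPM with sgNTC18, and at 6.92 to 8.62 CPM with shPAX8-1 and 7.40 to 8.99 CPM with shPAX8-2. The hairpin groups covered the same range, above that of sgNTC18. Its log2 fold change was 1.33 ± 0.16 (adjusted p = 2.39e-06) and 1.35 ± 0.16 (adjusted p = 3.61e-06), and -0.02 ± 0.15 between the hairpins (adjusted p = 0.932). In OS-LM1 cells it read 9.33, 8.61, 11.3 and 9.16 CPM with sgNTC18. The hairpin libraries read 50.6, 33.7, 37.8 and 48.3 CPM with shPAX8-1, and 20.9, 30.4, 26.7 and 29.8 CPM with shPAX8-2, again without overlap among the 3 groups. Its log2 fold change was 2.13 ± 0.14 (adjusted p = 1.03e-10) with shPAX8-1, 1.499 ± 0.14 (adjusted p = 1.8e-08) with shPAX8-2 and 0.63 ± 0.14 (adjusted p = 0.00173) between them.

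KLF3, the CtBP-recruiting repressor of the group, lies at chr4:38664199-38701517. In 786-M1A cells it stood at 35.7 ± 1.97 CPM with sgNTC18, 89.3 ± 17.3 with shPAX8-1 and 57.6 ± 5.18 with shPAX8-2 (n = 4 each). The shPAX8-1 libraries, from 67.3 to 105.8 CPM, were above all shPAX8-2 libraries, which were above all sgNTC18 libraries. Log2 fold changes were 1.35 ± 0.13 (adjusted p = 3.42e-07) with shPAX8-1, 0.71 ± 0.13 (adjusted p = 0.000257) with shPAX8-2 and 0.63 ± 0.13 (adjusted p = 0.00152) between them. In OS-LM1 cells the levels were 35.4 ± 2.51, 61.2 ± 2.57 and 55.9 ± 6.46 CPM. Both hairpin groups lay above sgNTC18 and overlapped each other, with log2 fold changes of 0.77 ± 0.09 (adjusted p = 4.18e-07) and 0.67 ± 0.09 (adjusted p = 2.98e-06) and a difference of 0.10 ± 0.09 (adjusted p = 0.452). KLF3 has the lowest GC content of the 10, at 41.1%. With the GC trend removed the log2 fold change was 0.28 (adjusted p = 0.0134) between the hairpins in 786-M1A cells and 0.47 and 0.42 against sgNTC18 in OS-LM1 cells, and with shPAX8-1 replicates 1 and 2 alone the first was 0.40 (adjusted p = 0.0204).

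KLF9, a SIN3A-binding factor known as a target of glucocorticoid and thyroid hormone receptors, lies at chr9:70384604-70414657. In OS-LM1 cells it read 3.61, 4.80, 2.70 and 3.95 CPM with sgNTC18. The shPAX8-1 libraries read 71.4, 77.1, 80.2 and 70.7 CPM and the shPAX8-2 libraries 64.2, 75.9, 59.6 and 66.4 CPM. The hairpin groups overlapped each other and lay far above sgNTC18. On the log2 scale the fold change was 4.29 ± 0.15 with shPAX8-1 (adjusted p = 6.32e-15) and 4.15 ± 0.15 with shPAX8-2 (adjusted p = 1.31e-14), above 99.2% and 99.1% of all genes in the same comparison, and 0.14 ± 0.12 between the hairpins (adjusted p = 0.429). In 786-M1A cells KLF9 read 10.0, 9.73, 10.5 and 11.99 CPM with sgNTC18. There it read 40.8, 36.9, 51.1 and 53.3 CPM with shPAX8-1 and 32.9, 28.3, 26.9 and 24.7 CPM with shPAX8-2. The 3 groups did not overlap. The fitted log2 fold change was 2.13 ± 0.15 (adjusted p = 7.27e-09), 1.44 ± 0.14 (adjusted p = 6.81e-07) and, between the hairpins, 0.69 ± 0.14 (adjusted p = 0.00124).

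KLF10 and KLF11, SIN3A-binding factors first described as TGF-beta inducible early genes, lie on chromosome 8 and at chr2:10043550-10054836. In 786-M1A cells KLF10 stood at 133.9 ± 10.8 CPM with sgNTC18, 118.5 ± 5.02 with shPAX8-1 and 126 ± 12.03 with shPAX8-2, with overlapping ranges. No difference of KLF10 passed the test there (log2 fold changes -0.16, -0.06 and -0.09), although shPAX8-1 reached -0.26 (adjusted p = 0.00763) with the GC trend removed. In OS-LM1 cells KLF10 read 200.5, 173, 200.6 and 182 CPM with sgNTC18. It read 167, 176, 133 and 156 CPM with shPAX8-1 and 109, 117, 113 and 126 CPM with shPAX8-2. The shPAX8-2 libraries were below all others, and those with shPAX8-1 overlapped sgNTC18. The log2 fold change was -0.70 ± 0.09 with shPAX8-2 (adjusted p = 1.23e-06), 0.41 ± 0.09 between the hairpins (adjusted p = 0.0018) and -0.28 ± 0.09 with shPAX8-1 (adjusted p = 0.00825). The last call was lost without sgNTC18 replicate 1 or 3 (-0.23 for both, adjusted p of 0.051 and 0.054).

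KLF11 was higher with both hairpins in 786-M1A cells and lower with shPAX8-1 in OS-LM1 cells. Across the 786-M1A libraries it stood at 31.8 ± 2.34 CPM with sgNTC18, 55.5 ± 7.30 with shPAX8-1 and 50.2 ± 5.35 with shPAX8-2, with no overlap between sgNTC18 and either hairpin. Its log2 fold changes were 0.82 ± 0.12 (adjusted p = 1.83e-05) and 0.68 ± 0.12 (adjusted p = 0.000167), and 0.15 ± 0.12 between the hairpins (adjusted p = 0.331). In OS-LM1 cells the levels were 30.5 ± 3.61, 24.4 ± 1.66 and 33.2 ± 2.75 CPM. The shPAX8-1 libraries (22.4 to 26.0 CPM) were below all others, and shPAX8-2 overlapped sgNTC18. Its log2 fold change was -0.35 ± 0.10 (adjusted p = 0.00461) with shPAX8-1, 0.12 ± 0.10 (adjusted p = 0.281) with shPAX8-2 and -0.47 ± 0.10 (adjusted p = 0.00165) between them.

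KLF13, a SIN3A-binding factor known from lymphocytes and heart, lies at chr15:31326835-31435665 and passed the test in none of the 6 comparisons within a line. Its log2 fold changes ran from -0.24 to 0.32, with unadjusted p of 0.054 or more, and DESeq2 called none of the 6 either. In 786-M1A cells its 12 libraries spanned 22.7 to 38.7 CPM, and in OS-LM1 cells 12.4 to 18.6 CPM. The groups overlapped, except that all 786-M1A shPAX8-1 libraries (27.6 CPM or more) lay just above all sgNTC18 libraries (27.4 CPM or less). KLF13 is GC-rich at 57.7%. With the GC trend removed it was higher than sgNTC18 by 0.75 (adjusted p = 1.16e-05) with shPAX8-1 and 0.40 (adjusted p = 0.00485) with shPAX8-2 in 786-M1A cells, by 0.27 (adjusted p = 0.0159) with shPAX8-2 in OS-LM1 cells, and higher with shPAX8-1 than with shPAX8-2 by 0.34 (adjusted p = 0.0227) in 786-M1A cells. Without 786-M1A shPAX8-2 replicate 4 the value for that hairpin against sgNTC18 was 0.41 (adjusted p = 0.0324), and with shPAX8-1 replicates 1 and 2 alone that for shPAX8-1 was 0.39 (adjusted p = 0.0432), against 0.16 (adjusted p = 0.368) with replicates 3 and 4.

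**Figure D3:**
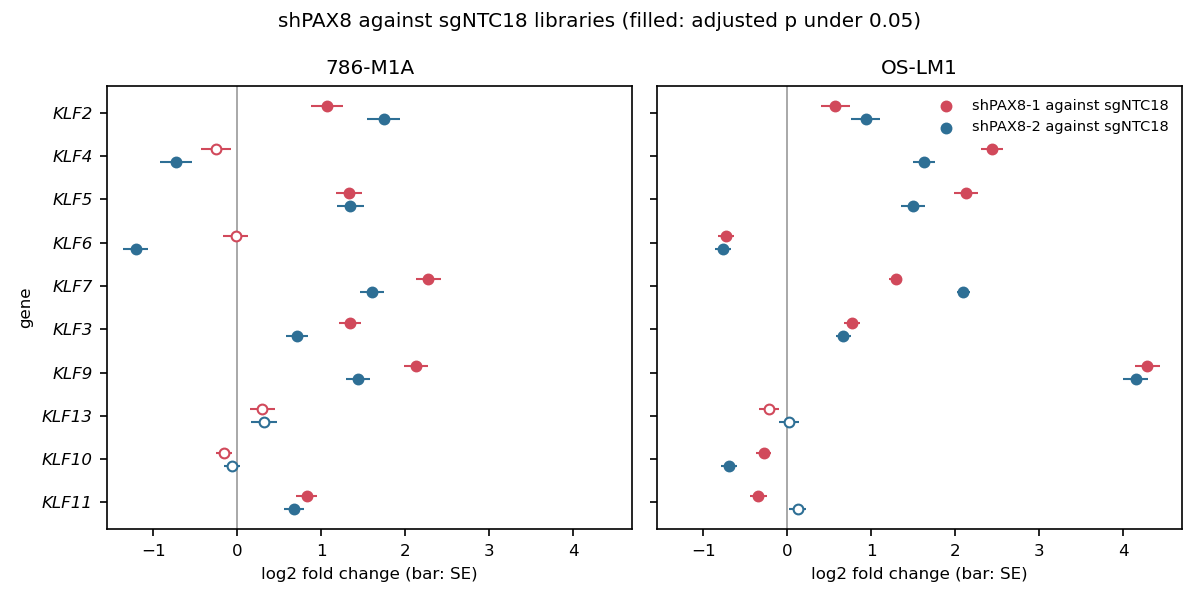
Log2 fold change (bars of 1 SE) of shPAX8-1 and shPAX8-2 libraries against sgNTC18 libraries for the 10 genes in each line, with filled points for an adjusted p under 0.05. KLF9 in OS-LM1 cells stands apart at 4.29 and 4.15, and KLF4 passes at -0.73 with shPAX8-2 in 786-M1A and at 2.43 and 1.63 in OS-LM1 cells.

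The comparison of the hairpins with each other takes no difference from the sgNTC18 libraries, although these entered the filter, the scaling and the estimate of spread. In 786-M1A cells 5 members (KLF3, KLF4, KLF6, KLF7 and KLF9) were higher with shPAX8-1 and 1 (KLF2) lower, where 24.2% of all genes were higher and 22.9% lower. In OS-LM1 cells 3 (KLF4, KLF5 and KLF10) were higher and 2 (KLF7 and KLF11) lower, beside 12.4% and 16.7% of all genes. The median log2 fold change of the members was 0.31 and 0.07, against -0.02 and -0.03 over all genes. The difference of this contrast between the lines, OS-LM1 minus 786-M1A, was higher for 2 members and lower for 5, beside 12.7% and 14.5% of all genes. It was largest for KLF7 at -1.44 ± 0.16 (adjusted p = 2.23e-07) and KLF6 at -1.12 ± 0.18 (adjusted p = 4.95e-05), and PAX8 itself gave 1.16 ± 0.20 (adjusted p = 0.00015). KLF5 (0.68 ± 0.21, adjusted p = 0.0183), KLF10 (0.54 ± 0.13, adjusted p = 0.00334) and KLF11 (-0.59 ± 0.16, adjusted p = 0.00626) also differed. KLF3 gave -0.50 ± 0.16 (adjusted p = 0.0211) and -0.22 (adjusted p = 0.154) with the GC trend removed, and missed the threshold when only the groups compared were fitted (adjusted p = 0.0518). KLF13, not called, reached -0.44 (adjusted p = 0.0331) with the GC trend removed. With replicates 1 and 2 of 786-M1A shPAX8-1 alone, KLF3 (-0.27, adjusted p = 0.253), KLF9 (-0.29, adjusted p = 0.317) and KLF11 (-0.48, adjusted p = 0.0503) no longer passed. The KLF3 call was also lost without OS-LM1 shPAX8-2 replicate 2 or 786-M1A shPAX8-1 replicate 3 or 4 (-0.44 to -0.41, adjusted p up to 0.0632). KLF9 gave -0.52 ± 0.19 (adjusted p = 0.041), a call lost when any of 11 of the 16 libraries was left out (all but OS-LM1 shPAX8-1 replicate 3, OS-LM1 shPAX8-2 replicate 3, 786-M1A shPAX8-1 replicates 1 and 2 and 786-M1A shPAX8-2 replicate 1), with values of -0.54 to -0.44 and adjusted p up to 0.101.

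**Figure D4:**
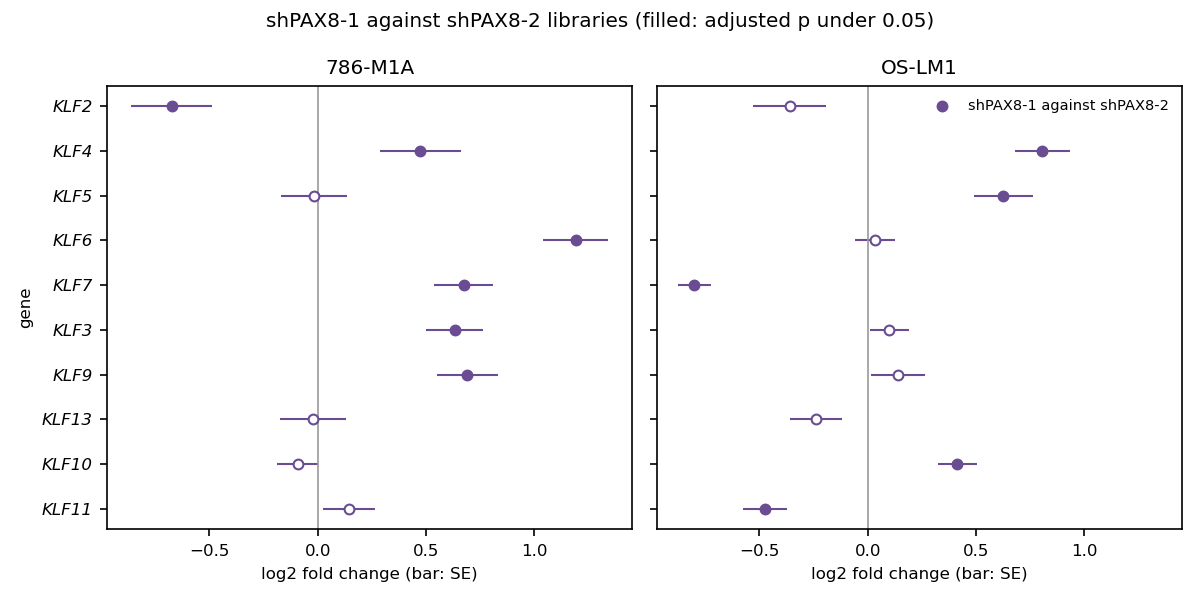
Log2 fold change (bars of 1 SE) of shPAX8-1 against shPAX8-2 libraries for the 10 genes in each line, with filled points for an adjusted p under 0.05. KLF6 is at 1.19 in 786-M1A and 0.04 in OS-LM1 cells, and KLF7 is at 0.67 in 786-M1A and -0.80 in OS-LM1 cells.

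The lines were next compared in the log2 fold change of both hairpins, pooled, against sgNTC18. PAX8 itself gave 1.87 ± 0.17 (edgeR, adjusted p = 7.53e-10) for OS-LM1 minus 786-M1A, being lowered by less in OS-LM1 cells. The part of this unequal PAX8 level in the values below was not tested. The same difference, OS-LM1 minus 786-M1A, was higher for 3 members and lower for 3, near the 29.9% and 28.8% of all genes that were called. KLF4 gave 2.55 ± 0.21 (adjusted p = 7.91e-11) and KLF9 2.47 ± 0.18 (adjusted p = 6.85e-12), the size of a 5.87-fold and a 5.52-fold difference. KLF11 gave -0.83 ± 0.13 (adjusted p = 7.49e-06) and KLF10 -0.35 ± 0.11 (adjusted p = 0.00973). KLF2 gave -0.62 ± 0.23 (adjusted p = 0.0201) and KLF5 0.51 ± 0.19 (adjusted p = 0.0246). The KLF2 call was lost without 786-M1A sgNTC18 replicate 1 or OS-LM1 sgNTC18 replicate 4 (-0.50 and -0.55, adjusted p up to 0.0615), and the KLF5 call without 786-M1A sgNTC18 replicate 3 or OS-LM1 sgNTC18 replicate 2 (0.36 and 0.46, adjusted p up to 0.13). KLF6 gave -0.10 ± 0.15 (adjusted p = 0.596), -0.28 (adjusted p = 0.026) with replicates 3 and 4 of 786-M1A shPAX8-1 alone and 0.04 (adjusted p = 0.796) with replicates 1 and 2 alone. KLF13 (-0.38, adjusted p = 0.0601), KLF3 (-0.28, adjusted p = 0.0845) and KLF7 (-0.22, adjusted p = 0.174) did not pass. KLF13 passed without any of 6 libraries (-0.46 to -0.41), KLF3 without OS-LM1 shPAX8-2 replicate 2 or 786-M1A shPAX8-1 replicate 2 (-0.34 to -0.32) and KLF7 without 786-M1A shPAX8-1 replicate 2 (-0.27, adjusted p = 0.045). KLF13 (-0.35, adjusted p = 0.0237) and KLF3 (-0.38, adjusted p = 0.00181) also passed with the GC trend removed. With replicates 3 and 4 of 786-M1A shPAX8-1 alone KLF3 (-0.42) and KLF7 (-0.31) passed and KLF5 (0.45, adjusted p = 0.0511) did not, and with replicates 1 and 2 alone KLF13 passed (-0.48). The 6 libraries for KLF13 were OS-LM1 sgNTC18 replicate 2, OS-LM1 shPAX8-2 replicate 3, 786-M1A shPAX8-2 replicates 3 and 4 and 786-M1A shPAX8-1 replicates 3 and 4.

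Between the lines themselves, 2 members were higher and 4 lower in OS-LM1 than in 786-M1A sgNTC18 libraries, where 32.0% and 31.0% of all genes were called. KLF5 (1.55 ± 0.16, adjusted p = 3.22e-09) and KLF10 (0.50 ± 0.09, adjusted p = 3.76e-05) were the higher ones. The lower ones were KLF4 (-2.34 ± 0.17, adjusted p = 5.05e-12), KLF9 (-1.49 ± 0.15, adjusted p = 1.99e-09), KLF2 (-1.20 ± 0.19, adjusted p = 3.01e-06) and KLF13 (-0.75 ± 0.14, adjusted p = 4.62e-05). In the shPAX8 libraries 3 members were higher and 6 lower in OS-LM1 (41.7% and 41.5% of all genes). KLF9 was then on the other side, at 0.98 ± 0.10 (adjusted p = 3.3e-10), and KLF4 was at 0.21 ± 0.12 (adjusted p = 0.0942; 0.26 and adjusted p = 0.0413 without 786-M1A shPAX8-1 replicate 1). KLF5 remained the most line-dependent of the higher members at 2.06 ± 0.11 (adjusted p = 7.41e-16). KLF2 was at -1.83 ± 0.13 (adjusted p = 4.95e-13), KLF13 at -1.13 ± 0.10 (adjusted p = 7.62e-11) and KLF11 at -0.89 ± 0.08 (adjusted p = 4.23e-11). KLF7 (-0.42 ± 0.08, adjusted p = 1.91e-05) and KLF3 (-0.29 ± 0.08, adjusted p = 0.0015) were lower by less. KLF6 at -0.22 ± 0.09 (adjusted p = 0.0254) lost its call without OS-LM1 shPAX8-2 replicate 4 or 786-M1A shPAX8-1 replicate 4 (-0.18 and -0.17, adjusted p up to 0.0809) and with replicates 1 and 2 of 786-M1A shPAX8-1 alone (-0.06, adjusted p = 0.426). KLF10 at 0.15 ± 0.07 (adjusted p = 0.0404) lost it under both DESeq2 settings (adjusted p of 0.0596 and 0.0721), with the GC trend removed (0.01, adjusted p = 0.854) and without any of 9 libraries (0.10 to 0.15, adjusted p up to 0.166). These were OS-LM1 shPAX8-1 replicates 1 and 2, OS-LM1 shPAX8-2 replicates 2 and 4, 786-M1A shPAX8-1 replicates 2, 3 and 4 and 786-M1A shPAX8-2 replicates 3 and 4. With the GC trend removed KLF6 (-0.24, adjusted p = 0.0273) and KLF7 (-0.35, adjusted p = 0.00513) were also lower in OS-LM1 sgNTC18 libraries, and KLF4 was higher in OS-LM1 shPAX8 libraries (0.42, adjusted p = 0.00108). Other values moved with the GC trend removed were -0.77 for KLF2 and -0.48 for KLF13 in sgNTC18 libraries, and -0.54 for KLF3, -0.63 for KLF7 and -0.39 for KLF6 in shPAX8 libraries. Fitting only the groups compared, KLF10 in shPAX8 libraries did not pass (0.14, adjusted p = 0.0722) and KLF7 in sgNTC18 libraries did (-0.21, adjusted p = 0.0168).

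The promoters of KLF6, KLF7 and KLF9 are shown because these are the members whose levels differed most in opposite directions. Each run, from RefSeq (GRCh38.p14, minus strand), holds 250 bases before and 50 after a transcript start, written 5′ to 3′ with the GC box GGGCGG and the CACCC box, on either strand, in capitals. KLF6 is at chr10:3785160-3785459, KLF7 at chr2:207165899-207166198 and KLF9 at chr9:70414608-70414907. The KLF6 and KLF9 windows lie at the 5′ end of the gene, and the KLF7 window at a transcript start inside it.
KLF6 promoter: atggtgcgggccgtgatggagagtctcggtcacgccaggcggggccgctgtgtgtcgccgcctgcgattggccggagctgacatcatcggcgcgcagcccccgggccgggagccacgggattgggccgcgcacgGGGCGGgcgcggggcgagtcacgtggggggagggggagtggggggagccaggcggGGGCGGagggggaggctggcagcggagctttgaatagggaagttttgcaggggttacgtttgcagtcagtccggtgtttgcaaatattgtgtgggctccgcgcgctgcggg
KLF7 promoter: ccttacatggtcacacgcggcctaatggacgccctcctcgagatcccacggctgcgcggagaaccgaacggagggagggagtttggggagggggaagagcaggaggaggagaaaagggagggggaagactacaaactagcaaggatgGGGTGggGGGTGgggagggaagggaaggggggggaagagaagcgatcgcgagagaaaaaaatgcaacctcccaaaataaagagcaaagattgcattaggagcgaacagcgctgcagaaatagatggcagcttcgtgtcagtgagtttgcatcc
KLF9 promoter: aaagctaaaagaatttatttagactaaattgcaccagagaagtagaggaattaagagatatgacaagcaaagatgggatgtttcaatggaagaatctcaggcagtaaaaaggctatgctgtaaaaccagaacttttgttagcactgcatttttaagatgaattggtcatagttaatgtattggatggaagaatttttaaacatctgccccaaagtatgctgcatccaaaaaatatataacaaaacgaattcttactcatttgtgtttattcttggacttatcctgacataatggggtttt
The KLF6 window holds 2 GC boxes and 0 CACCC boxes, the KLF7 window 0 and 2, and the KLF9 window 0 of both. Of the 10 genes 8 had a window in the table, of which 5 held a GC box and 3 a CACCC box, whereas 44.6% and 58.9% of 27305 promoters of that length did. GC boxes were in the windows of KLF2, KLF4, KLF6, KLF11 and KLF13. The letters ACGTG, the core of the hypoxia response element, were in 3 of the 8 (KLF4, KLF6 and KLF11) and in 21.6% of all. GC content of the window was 70.7% for KLF6, 56.7% for KLF7 and 32.7% for KLF9, beside a median of 58.3%.

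Of 7 other KLF genes 3 were tested in each line. KLF12, a CtBP-recruiting repressor, stood at 22.1 ± 3.14 CPM in 786-M1A and 33.3 ± 2.65 CPM in OS-LM1 sgNTC18 cells. It was higher with either hairpin in both lines, by log2 fold changes of 1.51 ± 0.15 and 1.14 ± 0.15 in 786-M1A (adjusted p = 2.81e-07 and 8.08e-06) and 1.96 ± 0.10 and 2.16 ± 0.10 in OS-LM1 (adjusted p = 8.81e-13 and 3.5e-13). KLF8, of the same subgroup, was at 29.7 ± 2.30 CPM in OS-LM1 sgNTC18 cells and at 0.0995 ± 0.0456 CPM in 786-M1A sgNTC18 cells, and in OS-LM1 it was lower with either hairpin (-1.81 ± 0.11 and -1.55 ± 0.11, adjusted p = 4.47e-11 and 4.45e-10). KLF17 was tested in 786-M1A cells only, where it stood at 0.417 ± 0.108 CPM with sgNTC18 and 3.08 ± 0.311 CPM with shPAX8-1. KLF1 and KLF14 were listed at 0 in all 24 libraries. The SP factors, which share the DNA-binding part of the family, were counted beside the shares of all genes. Of 7 tested in 786-M1A, 3 were higher and 2 lower with shPAX8-1 (36.1% and 34.5% of all genes) and 3 higher and 1 lower with shPAX8-2 (31.5% and 30.9%). Of 5 in OS-LM1, 2 were higher and 3 lower with shPAX8-1 (35.6% and 35.8%), and 2 and 2 with shPAX8-2 (34.3% and 34.1%).

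Genes that act on or with the factors were counted in the same fits, in lists chosen with earlier results of these data known. In the comparisons with sgNTC18, 31.5% to 36.1% of all genes were higher and 30.9% to 35.8% lower. Of 12 cofactors and ubiquitin ligases, 4 were higher and 4 lower with shPAX8-1 in 786-M1A cells, 5 and 2 with shPAX8-2, and in OS-LM1 cells 6 and 3, and 7 and 2. WWP1, a ubiquitin ligase for KLF2 and KLF5, was higher with either hairpin in both lines (log2 fold changes 1.00, 0.56, 0.60 and 0.68), and the deacetylase HDAC3 was lower (-0.94, -0.37, -0.48 and -0.30). Of 11 upstream regulators, 8 were higher and 1 lower with each hairpin in 786-M1A cells, and 10 higher and 0 lower with each in OS-LM1 cells. The shares over all genes were 31.5% to 36.1% higher and 30.9% to 35.8% lower. The median log2 fold change of these regulators was 0.79, 0.48, 0.92 and 0.85, in the order 786-M1A shPAX8-1, 786-M1A shPAX8-2, OS-LM1 shPAX8-1 and OS-LM1 shPAX8-2. Medians over all genes lay between -0.014 and 0.034. As the list was chosen with earlier results known, these values describe the chosen genes only. TGFBR1, the type I TGF-beta receptor, stood at 28.1 ± 3.68 CPM in 786-M1A sgNTC18 cells and at 101 ± 27.4 and 55.7 ± 6.78 with the hairpins, and in OS-LM1 at 29.1 ± 3.53, 76.6 ± 14.9 and 130.8 ± 20.9 CPM. MEF2C, a factor related to MEF2A, was at 0.0219 ± 0.0146 CPM in OS-LM1 sgNTC18 cells and at 1.15 ± 0.424 and 0.669 ± 0.276 CPM with the hairpins. In 786-M1A cells it stood at 5.86 ± 0.579 CPM with sgNTC18, 4.84 ± 0.601 with shPAX8-1 and 4.19 ± 0.624 with shPAX8-2, the last lower by the test (-0.47 ± 0.16, adjusted p = 0.0183). MEF2A, a factor that switches on KLF2 and KLF4 downstream of MAPK7, was higher with either hairpin in both lines. It rose from 49.3 ± 0.967 CPM in OS-LM1 sgNTC18 libraries to 273 ± 22.2 and 231.9 ± 10.4 CPM in the hairpin libraries (2.44 ± 0.08 and 2.24 ± 0.08, adjusted p = 5.39e-15 and 2.16e-14). In 786-M1A the levels were 48.9 ± 1.10, 83.35 ± 9.58 and 62.4 ± 6.83 CPM (0.79 ± 0.11 and 0.37 ± 0.11, adjusted p = 9.98e-06 and 0.00749). In 786-M1A cells KLF2 was higher with either hairpin and KLF4 with neither. In OS-LM1 cells both were higher with either hairpin (0.57 and 0.93 for KLF2, 2.43 and 1.63 for KLF4). A part of MEF2A in these levels was not tested.

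Reported target genes of the family were counted in the same way. Of 10 tested in 786-M1A cells, 4 were higher and 4 lower with shPAX8-1 (36.1% and 34.5% of all genes), and 5 and 3 with shPAX8-2 (31.5% and 30.9%). Of 11 in OS-LM1 cells, 4 were higher and 4 lower with shPAX8-1 (35.6% and 35.8%), and 7 and 2 with shPAX8-2 (34.3% and 34.1%). Their median log2 fold change in these 4 comparisons was 0.35, 0.39, 0.19 and 0.51. THBD, thrombomodulin, a target of KLF2 in endothelium, stood at 4.69 ± 1.21 CPM in 786-M1A sgNTC18 cells, 26.1 ± 2.60 with shPAX8-1 and 11.8 ± 1.39 with shPAX8-2. NOS3, another endothelial target, was in OS-LM1 cells at 1.31 ± 0.310 CPM with sgNTC18, 0.168 ± 0.139 with shPAX8-1 and 0.151 ± 0.0952 with shPAX8-2. PDGFA, which encodes a chain of platelet-derived growth factor, was higher with either hairpin in both lines, by log2 fold changes of 1.09, 1.35, 1.43 and 2.497.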

How the data were processed

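Polyadenylated RNA of 24 libraries was sequenced, 4 in each of 6 groups of cell line and construct. The authors' processing notes name RSEM and Bowtie2 with hg38, and versions are not given in the sources used here. For library preparation the labels give a KAPA kit for stranded mRNA, whereas the methods give Lexogen kits. The deposited tables hold RSEM expected counts, not normalised, and TPM computed by the authors, for 26475 genes. The 10 members and all gene lists were chosen with earlier results of these data known.

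Expected counts were rounded and filtered with filterByExpr of edgeR 4.0.16 (R 4.3.3). Counts were scaled by TMM and groups compared by edgeR's robust quasi-likelihood test with Benjamini-Hochberg adjustment over all genes tested. Comparisons within a line used its 12 libraries (14452 genes in 786-M1A, 15049 in OS-LM1), and comparisons of the lines used all 24 (15665 genes). SE is the log2 fold change over the square root of F. CPM uses TMM library sizes, and log2 CPM a prior count of 2. Totals ranged from 11634419 to 52059375, and a member had at least 49 counts in each library. No pair of replicates agreed within sampling noise.

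Alternatives were DESeq2 1.42.0 size factors or test, no filter, only the groups compared or all 24 libraries in 1 fit, each library left out, a replicate block, a GC spline with 5 degrees of freedom (87.5% of genes had a GC value), an adjusted p under 0.01, and an absolute log2 fold change over 0.58. Splitting 786-M1A shPAX8-1 into its library pairs was added after seeing the data. Simulated counts with planted fold changes were used to test the scripts, and there edgeR kept the share of false calls near the nominal rate and DESeq2 let it rise above that rate.

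Named were all members, PAX8, at most 3 genes of each list that passed with the largest mean absolute change, and the 5 genes with an average log2 CPM of at least 3 most like KLF6. Amino acid sequences were not used here.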

Additional observations from a re-analysis of the deposited data

Results flagged for a closer look

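Among 60 sets of 4 libraries (10 genes in 6 groups), 4 had a library far from the others by Dixon's criterion, where chance gives about 1 in 20 sets, or 3 of 60. These were KLF6 in OS-LM1 sgNTC18 replicate 3 (170.9 CPM), KLF7 in 786-M1A sgNTC18 replicate 2 (59.5 CPM), KLF7 in 786-M1A shPAX8-1 replicate 2 (224.6 CPM) and KLF13 in 786-M1A shPAX8-1 replicate 1 (38.7 CPM).

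Of 20 line differences tested, 13 passed an adjusted p under 0.05. Against sgNTC18, the log2 fold change of shPAX8 in OS-LM1 minus that in 786-M1A was 2.55 for KLF4, 2.47 for KLF9, 0.51 for KLF5, -0.35 for KLF10, -0.62 for KLF2 and -0.83 for KLF11. For shPAX8-1 against shPAX8-2, the same difference was 0.68 for KLF5, 0.54 for KLF10, -0.50 for KLF3, -0.52 for KLF9, -0.59 for KLF11, -1.12 for KLF6 and -1.44 for KLF7.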

How the results depend on the processing

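Of 100 member results (10 genes in 10 comparisons) 70 passed an adjusted p under 0.05, 10 of these lost the call under at least 1 alternative other than the stricter thresholds on p and fold change, and 0 changed sign. The number of members called moved by more than 1.5 times in 5 cases. With an absolute log2 fold change over 0.58 it was 3 in place of 5 for shPAX8-1 against shPAX8-2 in OS-LM1, 5 in place of 9 between the lines in shPAX8 libraries, and 4 in place of 7 for the line difference of the hairpins. That last count was also 4 at an adjusted p under 0.01 and 4 with 786-M1A shPAX8-1 replicates 1 and 2 only. Leaving out 1 library, the counts stayed between 5 and 10.

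Values that changed sign had not passed the test. With the GC trend removed, without and with the replicate block, KLF4 with shPAX8-1 against sgNTC18 in 786-M1A was 0.14 and 0.12, KLF13 between the hairpins in 786-M1A 0.34 and 0.35, and KLF13 with shPAX8-1 in OS-LM1 0.15 and 0.15. KLF13 with shPAX8-2 in OS-LM1 was -0.012 with no filter. With 786-M1A shPAX8-1 replicates 3 and 4 only, KLF6 against sgNTC18 was 0.26 and KLF5 between the hairpins 0.035. With replicates 1 and 2 only, KLF13 between the hairpins was 0.10 and the KLF6 line difference against sgNTC18 0.038. Leaving out 1 library, the values that changed sign ranged from -0.138 to 0.112 for KLF6 with shPAX8-1 in 786-M1A, from -0.066 to 0.051 for KLF5 and -0.151 to 0.060 for KLF13 between the hairpins in 786-M1A, from -0.088 to 0.086 for KLF13 with shPAX8-2 in OS-LM1, from -0.023 to 0.097 for KLF6 between the hairpins in OS-LM1 and from -0.046 to 0.027 for KLF3 between the sgNTC18 lines. The cause was not tested.

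Taken over both lines, same-numbered libraries were not more alike than others: of 24 correlations of their deviations 6 were over 0.1 (mean 0.003, other numbers -0.001). These means hide structure in 786-M1A cells. There the same-numbered shPAX8-1 and shPAX8-2 libraries had correlations of 0.217, 0.154, 0.271 and 0.037 for replicates 1 to 4. Differently numbered ones ran from -0.365 to 0.312, for shPAX8-2 replicate 3 with shPAX8-1 replicates 1 and 4. With the replicate block KLF4 between the hairpins in 786-M1A (0.46, adjusted p = 0.064) and KLF9 in the line difference of the hairpins (-0.52, adjusted p = 0.057) no longer passed, KLF13 with shPAX8-2 in 786-M1A (0.30, adjusted p = 0.049) and in the line difference against sgNTC18 (-0.37, adjusted p = 0.048) did, and the other 96 calls did not change.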
